A study of Mus musculus with 7 samples.

Results

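Genes of fatty acid uptake, storage and oxidation were examined in mouse hearts with and without myocarditis of the kind caused by immune checkpoint inhibitors (ICI). The set was a list of 32 gene symbols, matched exactly to the gene column of the deposited expression table. All 32 were found among its 23420 rows. They were read by role: 5 genes of uptake and activation, 5 of the carnitine shuttle and its control, 9 of the beta-oxidation spiral, 3 auxiliary enzymes for unsaturated chains, 2 acyl-CoA thioesterases, 3 of electron transfer, 3 of lipid droplets, and Ucp3 and Pdk4.

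RNA was sequenced in 7 libraries, each from an untreated mouse aged 3 to 6 weeks. The tissue label reads whole heart, while the extraction protocol names ventricle. The 4 control hearts were Ctla4+/+;Pdcd1-/- and the 3 ICI-myocarditis hearts were Ctla4+/-;Pdcd1-/-, so both groups carried the Pdcd1 deletion and differed, by label, in the copies of Ctla4. The genotypes are germline, not drug treatment, and no Pdcd1+/+ animal was sequenced. Ctla4 and Pdcd1 encode the T cell receptors CTLA-4 and PD-1. The labels give no batch, litter or sex, and the p-values measure the spread between these 7 libraries.

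The heart draws most of its energy from fatty acids. Lipoprotein lipase frees them from circulating lipoproteins, CD36 and fatty acid transport proteins carry them into the cell, and acyl-CoA synthetases activate them. The carnitine shuttle moves long acyl chains into mitochondria, where the beta-oxidation spiral shortens them to acetyl-CoA. Electrons from its dehydrogenases reach the respiratory chain through electron transfer flavoprotein. Fatty acids that are not burned are held as triglyceride in lipid droplets. Many genes of these steps are targets of the nuclear receptor PPAR-alpha.

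The libraries held from 20931730 to 39037176 reads counted in genes, as recovered by dividing each value by the smallest value of its library. Values are normalized counts, that is, reads per gene scaled by a size factor for each library. The test was limma on log2(normalized count + 1) over 15236 genes, with a threshold of 0.05 on the adjusted p. It called 2392 genes, 15.7% of those tested, 1783 of them higher and 609 lower in ICI-myocarditis. Control 2 and ICI-myocarditis 3 stood apart on the axis of greatest variance. Control 2 scored 2.25 on it, between the other controls (-96.6 to -61.1) and the ICI-myocarditis libraries (58.8 to 104.9). ICI-myocarditis 3 had that highest score. Ctla4 and Pdcd1 reads were higher, not lower, in the ICI-myocarditis group (log2 differences 2.4 and 6.54, adjusted p = 0.00852 and 0.00961 by limma), so neither checks the genotype labels. T cell markers were also higher in control 2, by a median of 2.56 on the log2 scale over the mean of all 4 controls. Cardiomyocyte markers were abundant in every library, with a summed level of 2065017 normalized counts or more.

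All 32 genes had a log2 fold change below 0, where 51.9% of all genes tested did. The median over the 32 was -1.17, which is 44.5% of the control level, against a median of -0.02 over all genes tested. Of the 32, 7 passed the threshold as lower (21.9%), where 4.00% of all genes tested were called lower, and 0 passed as higher, where 11.7% of all genes were. Those that fell were Cd36, Slc27a1, Acadvl, Hadha, Acaa2, Acot2 and Plin5. An unadjusted p under 0.05 was reached by 23. In 12 genes (37.5%) every ICI-myocarditis library lay under every control, a pattern found in 11.3% of all genes tested. The count of calls depended on single libraries: without control 2 it was 20, without control 1 or control 4 it was 3, and without control 3, ICI-myocarditis 2 or ICI-myocarditis 3 it was 1 (Plin5). The count of all genes called lower, 609 in the principal fit, moved in the same fits. It was 1085 without control 2, 243 without control 1 and 539 without control 4. Without control 3, ICI-myocarditis 2 or ICI-myocarditis 3 it was 176, 330 and 156. Of 17 alternative fits, Slc27a1 was called in 13, Cd36 and Acot2 in 12, Hadha in 11, Acaa2 in 10 and Acadvl in 9.

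**Figure D1:**
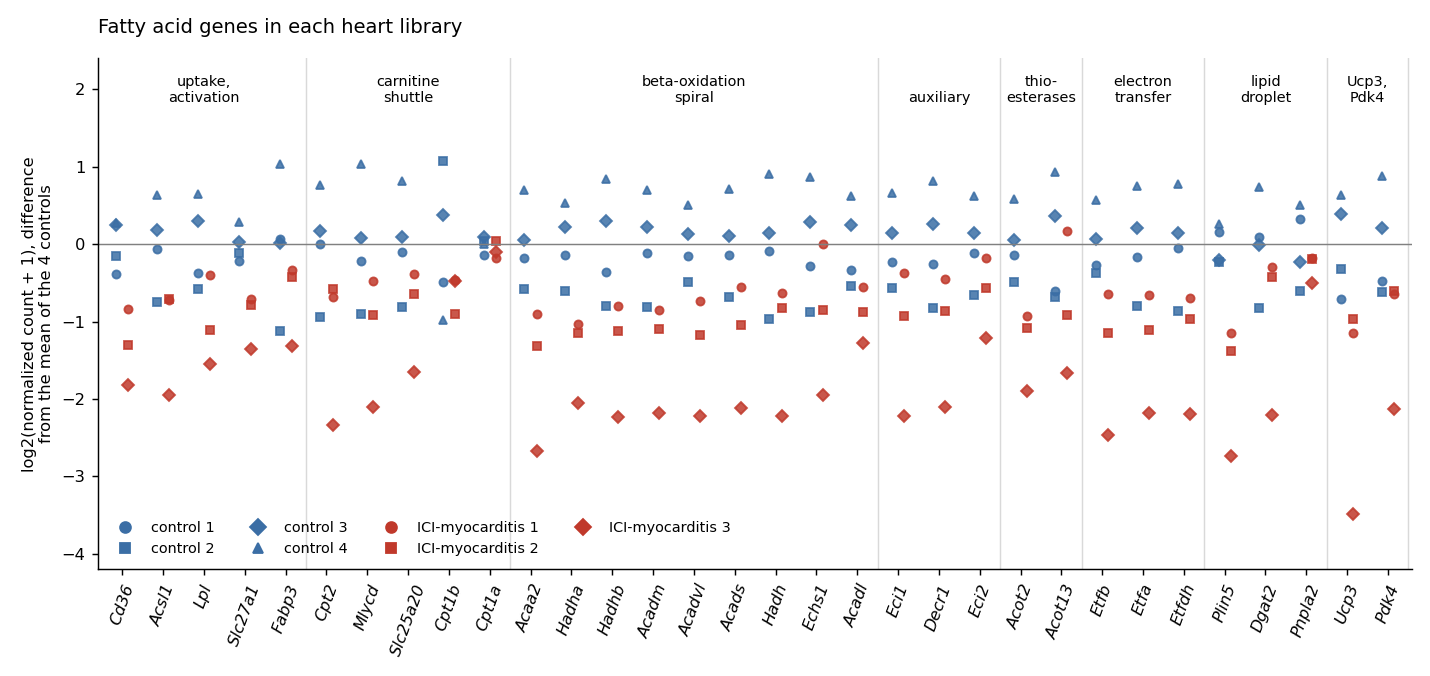
Each point is 1 library (blue, 4 controls; red, 3 ICI-myocarditis), plotted as log2(normalized count + 1) minus the control mean of that gene, with genes on the x axis ordered by step. Control 4 is the highest library for 30 of 32 genes and ICI-myocarditis 3 the lowest for 29 of 32.

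The order of the libraries repeated from gene to gene. Control 4 was the highest of the 7 libraries for 30 genes and ICI-myocarditis 3 the lowest for 29. Control 2 was the lowest control for 27 genes. ICI-myocarditis 1 was above control 2 for 17 genes and ICI-myocarditis 2 for 10, but ICI-myocarditis 3 only for 1. Together the 32 genes took 1.67%, 1.64%, 2.46% and 2.7% of gene reads in controls 1 to 4, and 1.5%, 1.16% and 0.692% in ICI-myocarditis 1 to 3. These shares did not overlap between groups, but the summed normalized counts did, with control 2 at 421892 and ICI-myocarditis 1 at 427588.

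**Figure D2:**
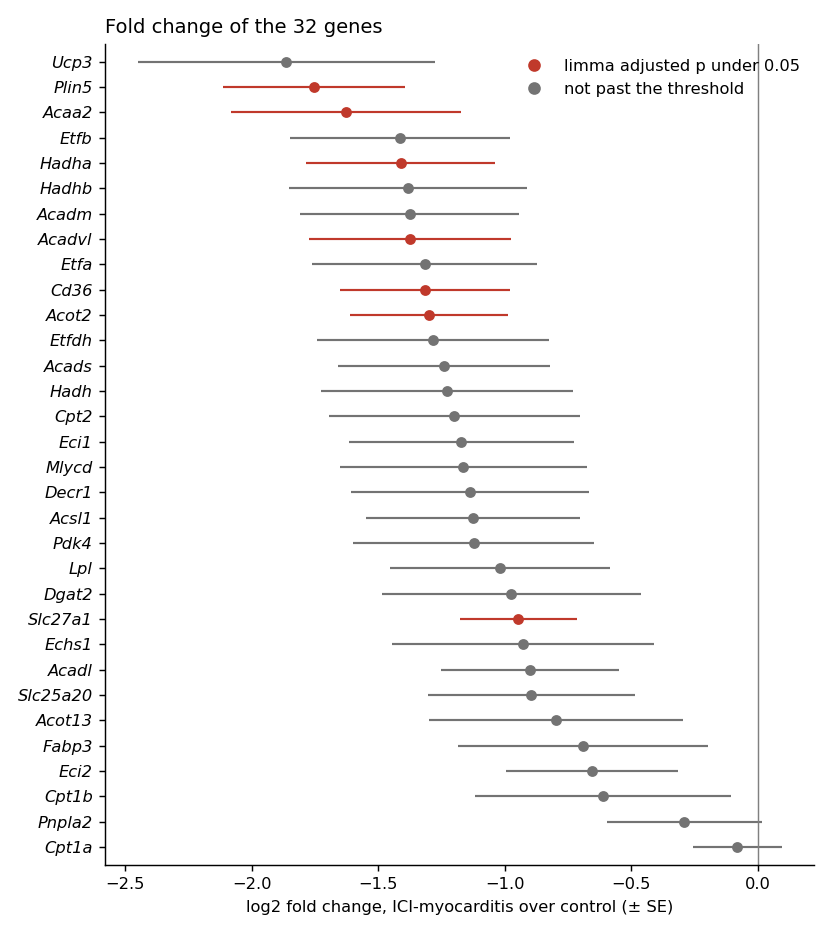
Log2 fold change of ICI-myocarditis over control for the 32 genes (x axis), with bars of 1 standard error from limma. Red points are the 7 genes past the adjusted threshold, and estimates run from -1.86 (Ucp3) to -0.08 (Cpt1a).

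Uptake and activation held 2 calls among 5 genes, with a median log2 difference of -1.02. Over all genes tested 4.00% were called lower, and with so few genes per step the counts of calls do not rank the steps. Cd36, the membrane fatty acid translocase, stood at 47653, 55967, 73811 and 75084 normalized counts in controls 1 to 4, and at 34841, 25212 and 17603 in ICI-myocarditis 1 to 3. The groups did not overlap, and Cd36 fell by 1.32 in log2 units (SE 0.338, adjusted p = 0.0291 by limma). Slc27a1, which encodes the fatty acid transport protein FATP1, read 4293, 4600, 5086 and 6068 in controls and 3043, 2884 and 1952 in ICI-myocarditis. It too was lower in every ICI-myocarditis library, and it fell by 0.95 (SE 0.231, adjusted p = 0.0242 by limma).

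The other uptake genes overlapped between groups. Lpl, the lipoprotein lipase gene, ranged from 107851 to 252634 normalized counts in controls and from 55257 to 122153 in ICI-myocarditis (log2 difference -1.02, adjusted p = 0.15 by limma). Acsl1, the main acyl-CoA synthetase of heart, ranged from 16626 to 43433 and from 7241 to 17044 (log2 difference -1.13, adjusted p = 0.107 by limma). Fabp3, the heart fatty acid binding protein, had the widest control range of the 5 for its level. It read 38877, 17082, 37664 and 76642 in controls and 29418, 27701 and 15000 in ICI-myocarditis, with control 2 below 2 of the ICI-myocarditis libraries (log2 difference -0.69, SE 0.493, adjusted p = 0.390 by limma). Per kilobase of transcript Fabp3 had the highest mean control level of the 32 genes, 51721 normalized counts, and Lpl the next, 41539.

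Cd36 and Lpl are also made outside cardiomyocytes, Cd36 by endothelium. Of 8 endothelial markers 4 were lower by the same test, where 4.00% of all genes tested were. The median log2 fold change of the 8 was -1.07. For 6 of the 8 (75%) every ICI-myocarditis library lay under every control, against 11.3% of all genes tested. The summed level of these markers was 31639 to 81190 normalized counts in controls and 23290 to 30024 in ICI-myocarditis. Their part in the fall of Cd36 was not tested. In bulk RNA, fewer cells of a type and less RNA per cell cannot be told apart, which holds for every value given here.

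The carnitine shuttle held no call among 5 genes, where 4.00% of all genes tested were called lower by limma. Of the 5, 2 had an unadjusted p under 0.05, and the median log2 difference was -0.89. Cpt1a, the liver-type carnitine palmitoyltransferase that starts the shuttle, read 3138, 3538, 3677 and 3472 normalized counts in controls and 3050, 3535 and 3221 in ICI-myocarditis. These values overlap almost wholly, and the log2 difference of -0.08 (SE 0.177, adjusted p = 0.806 by limma) was the nearest to 0 of the 32. With scaling by library size alone its sign turned to 0.08. Cpt2, the inner-membrane transferase, ranged from 2882 to 9381 in controls and from 1096 to 3691 in ICI-myocarditis (log2 difference -1.20, adjusted p = 0.140 by limma). Slc25a20, the carnitine-acylcarnitine carrier, had -0.89 (adjusted p = 0.179 by limma). Mlycd, whose product removes the CPT1 inhibitor malonyl-CoA, had -1.16 (adjusted p = 0.144 by limma).

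Cpt1b, the muscle-type transferase, is normally the main form in adult heart, yet this table listed it at 30.2, 91.3, 55.8 and 21.3 normalized counts in controls and 30.7, 22.5 and 30.6 in ICI-myocarditis. The groups overlapped (log2 difference -0.61, SE 0.506, adjusted p = 0.466 by limma). Per kilobase its mean control level was 17.2, the lowest of the 32 genes, against 801 for Cpt1a. In RefSeq (GRCm38.p6) Cpt1b spans chr15:89416405-89425862, which lies entirely inside a read-through gene, Gm44502, at chr15:89416405-89429927. That gene has a row of its own in the table under its older name BC090627, with 0 normalized counts in 6 libraries and 1.12 in control 3. Chkb, the other gene inside it (chr15:89426349-89429927), was also near the floor, at 1.53 to 6.26. Cpt1b was the only one of the 32 whose whole span lay in another gene with a row in the table. The part of gene overlap in its low level was not tested, and its counts are uncertain. The log2 ratio of Cpt1b over Cpt1a, -6.30 ± 0.867 (SD, n = 4) in controls and -6.83 ± 0.351 (SD, n = 3) in ICI-myocarditis, carries the same doubt (exact two-sided permutation p = 0.486).

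The beta-oxidation spiral held 3 of the 7 calls, and the median over its 9 genes was -1.37 on the log2 scale. Every ICI-myocarditis library lay under every control for 6 of the 9 (66.7%), against 11.3% of all genes tested. The same held for 33.3% of the cardiomyocyte markers and 75% of the endothelial markers. Acadvl encodes the dehydrogenase for very long chains. It read 29933, 23799, 36614 and 47086 normalized counts in controls and 20039, 14800 and 7141 in ICI-myocarditis, and it fell by 1.37 (SE 0.40, adjusted p = 0.0470 by limma). All 3 ICI-myocarditis values were under the lowest control, control 2. The other chain-length dehydrogenases did not pass. Acadl, for long chains, had -0.90 (adjusted p = 0.119 by limma), Acadm, for medium chains, -1.38 (0.0621) and Acads, for short chains, -1.24 (0.0782), each as a log2 fold change with its limma adjusted p.

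Hadha and Hadhb encode the alpha and beta subunits of the mitochondrial trifunctional protein, which carries out the later steps on long chains. Hadha read 36191, 26340, 46580 and 57801 normalized counts in controls and 19523, 18038 and 9666 in ICI-myocarditis. It fell by 1.41 (SE 0.374, adjusted p = 0.0333 by limma). Hadhb read 20780, 15306, 32842 and 47725 in controls and 15284, 12261 and 5649 in ICI-myocarditis. Its highest ICI-myocarditis value lay just under control 2, and its log2 difference of -1.38 did not pass (SE 0.469, adjusted p = 0.0790 by limma). The log2 ratio of Hadha over Hadhb was 0.59 ± 0.250 (SD, n = 4) in controls and 0.56 ± 0.211 (SD, n = 3) in ICI-myocarditis. That difference of -0.03 was within the spread of libraries (exact two-sided permutation p = 0.943). The genes are transcribed away from each other, and 85 bases lie between their outermost annotated starts in GENCODE M21 and RefSeq.

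Acaa2 encodes the mitochondrial thiolase that ends the spiral. It stood at 20236, 15286, 23822 and 36992 normalized counts in controls and 12235, 9190 and 3598 in ICI-myocarditis, without overlap. It fell by 1.63 (SE 0.455, adjusted p = 0.0409 by limma), the largest change of the spiral. Echs1, the short-chain enoyl-CoA hydratase, overlapped, with ICI-myocarditis 1 at 10805 above controls 1 and 2 (log2 difference -0.93, adjusted p = 0.268 by limma). Hadh, the dehydrogenase for shorter hydroxyacyl chains, had -1.23 (adjusted p = 0.133 by limma).

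The auxiliary enzymes Eci1, Eci2 and Decr1, which prepare unsaturated chains for the spiral, held no call (limma; 2 of 3 had an unadjusted p under 0.05). Their log2 differences were -1.17, -0.66 and -1.14 (adjusted p = 0.111, 0.234 and 0.140 by limma). Electron transfer held no call either, although all 3 genes had an unadjusted p under 0.05. With 4.00% of all genes tested called lower, no call among 3 genes says little about either step. The median over the 3 electron transfer genes was -1.32 on the log2 scale, close to the -1.37 of the spiral. Etfb, a subunit of the flavoprotein, came closest, at 15422, 14313, 19363 and 27628 normalized counts in controls and 11896, 8377 and 3367 in ICI-myocarditis. The groups were apart, and the log2 fold change was -1.42 (SE 0.436, adjusted p = 0.0577 by limma). Etfa, the other subunit, had -1.32 and Etfdh, which passes the electrons to ubiquinone, had -1.29 (adjusted p = 0.0774 and 0.0923 by limma).

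The thioesterases split. Acot2, which frees fatty acids from acyl-CoA in the mitochondrial matrix, read 3315, 2605, 3792 and 5521 normalized counts in controls and 1931, 1733 and 989 in ICI-myocarditis. It fell by 1.30 (SE 0.313, adjusted p = 0.0234 by limma). Its close relative Acot1 fell by 1.79 (SE 0.408, adjusted p = 0.0186 by limma), and reads of these similar genes may be shared between them. Acot13 overlapped, with ICI-myocarditis 1 at 5921 above controls 1 and 2 (log2 difference -0.80, adjusted p = 0.328 by limma). Whether Acot2 and Acot13 differ in their change was not tested.

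Among the lipid droplet genes, Plin5 had the lowest adjusted p of all 32. Its product, perilipin 5, coats droplets in oxidative tissue and links them to mitochondria. Plin5 read 5009, 3824, 3899 and 5366 normalized counts in controls and 2023, 1712 and 672 in ICI-myocarditis. The controls were close together, each ICI-myocarditis value was far under them, and Plin5 fell by 1.75 (SE 0.361, adjusted p = 0.0122 by limma). It was the only one of the 32 called in all 17 alternative fits, with adjusted p from 0.000196 to 0.0425.

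Dgat2, which makes triglyceride, ranged from 6285 to 18545 in controls and from 2406 to 9072 in ICI-myocarditis (log2 difference -0.97, adjusted p = 0.239 by limma). Pnpla2, the triglyceride lipase ATGL, read 13025, 6788, 8824 and 14726 in controls and 9127, 9058 and 7342 in ICI-myocarditis. All 3 ICI-myocarditis values lay inside the control range (log2 difference -0.29, SE 0.307, adjusted p = 0.578 by limma). None of the 6 adipocyte markers reached the level needed for testing. Their summed level was 8.07 to 183 normalized counts in controls and 4.58 to 7.97 in ICI-myocarditis, and Adipoq was at 0 in control 4 and in ICI-myocarditis 1 and 3.

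Ucp3, a mitochondrial carrier induced by fatty acids, had the largest fold change of the 32 but did not pass. It read 1491, 1948, 3197 and 3768 normalized counts in controls and 1097, 1248 and 217 in ICI-myocarditis. The groups were apart, but ICI-myocarditis 3 was far below the other two, and the log2 difference of -1.86 had an SE of 0.588 (adjusted p = 0.0625 by limma). Pdk4, the kinase that shuts off pyruvate dehydrogenase when fatty acids are used, read 11729, 10646, 18838 and 29864 in controls and 10439, 10699 and 3732 in ICI-myocarditis. ICI-myocarditis 1 and 2 were close to controls 1 and 2 (log2 difference -1.12, SE 0.477, adjusted p = 0.149 by limma).

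**Figure D3:**
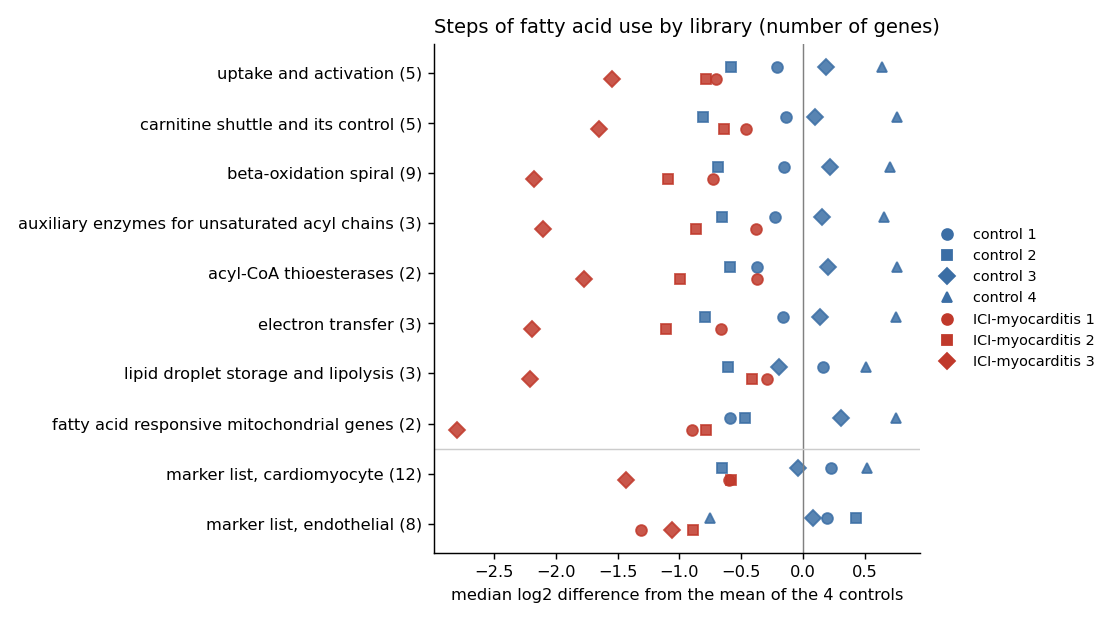
Each point is 1 library (blue, control; red, ICI-myocarditis): the median over a step's genes of the log2 difference from the control mean (x axis), with the gene number in brackets and 2 marker lists below the line. Control 2 and ICI-myocarditis 3 are low on the cardiomyocyte list as on the fatty acid steps.

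None of 12 cardiomyocyte markers was called by limma, where 4.00% of all genes tested were called lower. Only 2 of the 12 had an unadjusted p under 0.05, yet all 12 had fold changes below 0. Their median was -0.79 on the log2 scale, with a range from -1.30 to -0.46. In 4 of the 12 (33.3%) every ICI-myocarditis library lay under every control, against 37.5% of the 32 genes and 11.3% of all genes tested. The summed level of these markers was 2899347 to 6309271 normalized counts in controls and 2065017 to 3438685 in ICI-myocarditis. By library, the median log2 difference of these markers from their control mean was 0.22, -0.66, -0.04 and 0.51 in controls 1 to 4 and -0.60, -0.58 and -1.43 in ICI-myocarditis 1 to 3. The same figure for the 32 genes was -0.16, -0.63, 0.15 and 0.68 in controls and -0.64, -0.91 and -2.10 in ICI-myocarditis. Control 2 and ICI-myocarditis 3 were low on both, while control 1 was above its group's mean on the markers and below it on the 32 genes. The part of cardiomyocyte content in the falls was not tested.

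Each gene was therefore also set against the mean log2 level of the cardiomyocyte markers in the same library, as a description. The same value was subtracted from every gene of a library. The gap between the 32 and all genes tested thus stayed as it was before (medians -1.17 and -0.02). Relative to these markers 26 of the 32 were lower in ICI-myocarditis (81.2%), where 9.54% of all genes tested were, and the median difference was -0.35 on the log2 scale against 0.80 over all genes. For Plin5, Hadha, Acadm and Acot2 every ICI-myocarditis library was under every control (12.5% of the 32, against 1.23% of all genes tested), with differences of -0.93, -0.59, -0.56 and -0.48. Ucp3 had the largest relative difference, -1.04, but overlapped. Pnpla2 was the 1 gene for which every ICI-myocarditis library lay above every control, by 0.53, a pattern found in 28.5% of all genes tested. The other 5 with a relative difference above 0 were Cpt1a (0.74), Cpt1b (0.21), Eci2 (0.16), Fabp3 (0.13) and Acot13 (0.02), all with overlap.

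RefSeq promoter windows (GRCm38.p6, 250 bases before to 50 after a start site) were matched by symbol for 26 of the 32 genes, in 30 windows. Lpl, Cpt1b, Acaa2, Acot13, Decr1 and Dgat2 were not matched. The hexamer AGGTCA, the core of nuclear receptor binding sites, was found on either strand in 8 of the 30 windows (26.7%), in Acadm, Acadvl, Cd36, Cpt1a, Echs1, Plin5 and Ucp3. It was found in 16.3% of all 32851 windows. Its extended form TNAAGGTCA, which contains the hexamer and is bound by estrogen-related receptors, was in 0 of 30 windows and in 1.28% of all. The PPAR element, here a pair of such hexamers in direct repeat 1 base apart, was in 0 of 30 and in 0.0396% of all. These are matches of letters in short windows and say nothing about binding.

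The stretches printed here are those before the outermost annotated starts of Plin5, which had the lowest adjusted p, Acadvl, which fell, and Ucp3, which had the largest fold change. Each holds the hexamer, in capitals. Among the other genes that fell, the window of Cd36 holds it, and the windows of Slc27a1, Hadha and Acot2 do not. The gap between the subunit genes Hadha and Hadhb is shown beside the stretches of Plin5, Acadvl and Ucp3 and holds none. All are from RefSeq, GRCm38.p6, 5′ to 3′: Plin5 at chr17:56117607-56117798 and Acadvl at chr11:70015429-70015628, both on the minus strand, and Ucp3 at chr7:100472790-100472989 and the Hadha-Hadhb gap at chr5:30155163-30155247, both on the plus strand. None of their bases falls in a GENCODE M21 exon.
Plin5: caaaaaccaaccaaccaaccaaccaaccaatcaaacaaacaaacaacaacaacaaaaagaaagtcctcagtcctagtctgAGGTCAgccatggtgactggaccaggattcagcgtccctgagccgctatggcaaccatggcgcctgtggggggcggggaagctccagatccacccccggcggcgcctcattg
Acadvl: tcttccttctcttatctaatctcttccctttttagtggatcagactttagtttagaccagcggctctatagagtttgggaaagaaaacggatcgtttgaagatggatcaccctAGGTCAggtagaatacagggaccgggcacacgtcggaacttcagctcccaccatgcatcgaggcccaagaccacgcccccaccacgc
Ucp3: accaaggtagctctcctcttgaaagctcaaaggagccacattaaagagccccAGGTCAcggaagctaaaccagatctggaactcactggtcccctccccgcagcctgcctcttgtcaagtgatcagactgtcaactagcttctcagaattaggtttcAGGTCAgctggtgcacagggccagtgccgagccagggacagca
Hadha-Hadhb: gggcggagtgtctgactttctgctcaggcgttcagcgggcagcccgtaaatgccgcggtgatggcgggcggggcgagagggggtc

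Upstream regulators were not called. Of 12 regulator genes 0 passed limma's threshold in either direction, where 15.7% of all genes tested did (3 of the 12 had an unadjusted p under 0.05). Their median log2 difference was -0.54, and 11 of the 12 were below 0, where 51.9% of all genes were. In 3 (25%) every ICI-myocarditis library lay under every control, against 11.3% of all genes. Ppara, which encodes PPAR-alpha, read 4946, 2080, 2993 and 4600.5 normalized counts in controls and 1910, 1833 and 977 in ICI-myocarditis. The groups were apart, and Ppara missed the threshold narrowly (log2 difference -1.19, SE 0.356, adjusted p = 0.0511 by limma). Ppargc1a, the coactivator PGC-1alpha, ranged from 2658 to 6964 and from 1667 to 2949, with overlap (log2 difference -0.91, adjusted p = 0.114 by limma).

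Other genes of the pathway were called in both directions. Of 66 on the list 61 were tested. As lower 8 were called (13.1%, against 4.00% of all genes), and as higher 4 (6.56%, against 11.7% of all genes). The median log2 fold change was -0.56. Mgll, the monoglyceride lipase, fell from 7433 ± 1792 (SD, n = 4) to 2659 ± 596 (SD, n = 3) normalized counts, and on the log2 scale it fell by 1.47 (adjusted p = 0.00719 by limma). G0s2, whose product inhibits the lipase ATGL, fell by 0.98 (adjusted p = 0.0444 by limma). Slc22a5, the carnitine transporter of the cell membrane, fell by 1.05 (adjusted p = 0.0244 by limma), and Ech1, a dienoyl-CoA isomerase, fell by 1.66 (adjusted p = 0.0485 by limma). Fabp4 and Fabp5, fatty acid binding proteins found in endothelium among other cells, fell by 1.38 and 0.84 (adjusted p = 0.0305 and 0.0169 by limma). Pdp2, a phosphatase that turns pyruvate dehydrogenase on, fell by 1.58 (adjusted p = 0.0207 by limma), and Acot1 is given above. Mgll was called in all 17 alternative fits, and the other 7 in 8 to 15.

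The 4 that rose were Ucp2, Pdk3, Acsl5 and Acsl4. Ucp2, a relative of Ucp3 that is abundant in immune cells, read 3484, 3877, 2195 and 2596 normalized counts in controls and 10056, 9656 and 13773 in ICI-myocarditis. It rose by 1.89 (SE 0.264, adjusted p = 0.00379 by limma). Pdk3 rose by 1.19, Acsl5 by 1.05 and Acsl4 by 0.95 (adjusted p = 0.0269, 0.0247 and 0.0265 by limma). All 7 macrophage and monocyte markers tested were also called higher, with a summed level of 11305 to 16535 in controls and 56578 to 88512 in ICI-myocarditis. Likewise all 5 T cell markers were called higher, from 46.3 to 771 in controls and from 3332 to 5045 in ICI-myocarditis. Of 6 fibroblast markers 3 were called higher and 0 lower. The part of these cell types in the rises was not tested. Ucp2 was called in all 17 alternative fits, and the other 3 in 12 or 13.

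**Figure D4:**
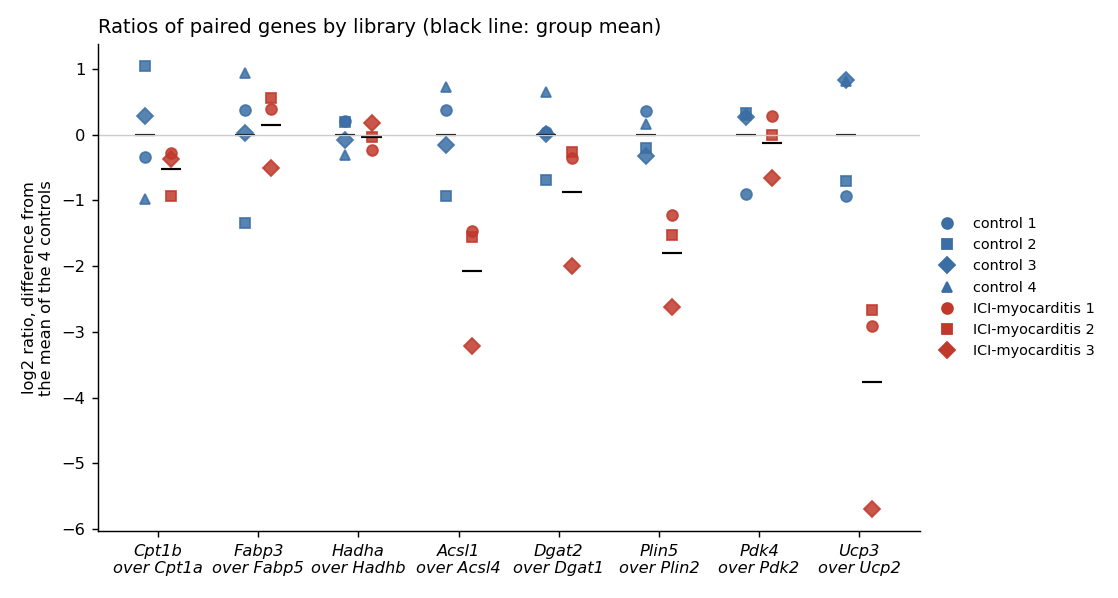
Log2 ratio of 8 gene pairs in each library (blue, control; red, ICI-myocarditis), drawn as the difference from the control mean, with black lines at group means. Ucp3 over Ucp2, Acsl1 over Acsl4 and Plin5 over Plin2 are lower in every ICI-myocarditis library than in any control.

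Related genes were compared within each library as 8 log2 ratios, tested by an exact two-sided permutation of the 7 libraries. The smallest p this design allows is 0.0286, and no ratio passed adjustment over the 8. A ratio at that p could pass only if most of the 8 reached it, so not passing says little about a single ratio. The log2 ratio of Ucp3 over Ucp2 was -0.28 ± 0.956 (SD, n = 4) in controls and -4.04 ± 1.68 (SD, n = 3) in ICI-myocarditis. It was lower in all 3 ICI-myocarditis libraries (difference -3.76, exact permutation p = 0.0286, adjusted 0.114). Plin5 over Plin2, another droplet coat protein, was 1.07 ± 0.317 (SD, n = 4) and -0.73 ± 0.736 (SD, n = 3), also apart (difference -1.80, exact permutation p = 0.0286, adjusted 0.114). Plin2 itself was level between groups within its error (log2 difference 0.04, SE 0.176, adjusted p = 0.905 by limma).

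Acsl1 over Acsl4 was 4.78 ± 0.721 (SD, n = 4) and 2.7 ± 0.992 (SD, n = 3), without overlap (difference -2.08, exact permutation p = 0.0571, adjusted 0.152). The remaining ratios overlapped. Their differences were -0.87 for Dgat2 over Dgat1, -0.13 for Pdk4 over Pdk2 and 0.15 for Fabp3 over Fabp5 (exact permutation p = 0.229, 0.60 and 0.83, adjusted 0.457, 0.80 and 0.943).

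By the authors' deposited table, 17 of these 32 were lower at an adjusted p below 0.05 and 0 were higher. The 17 from the authors' deposited table include the 7 that limma called and 10 that it did not. The shares of all genes called lower and higher in the deposited table were not counted, so neither 17 nor 0 has a background beside it. In the DESeq2 fit made here, 18 of the 32 and 1279 of all 15236 genes were called lower, against 609 of all genes by limma. As higher it called 0 of the 32 and 2156 of all genes.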

How the data were processed

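Heart RNA of 7 mice (4 control, 3 ICI-myocarditis) was sequenced from stranded total RNA libraries, per the labels. STAR 2.7.3 and GRCm38/mm10 are named in the submitters' processing notes. The counting program, annotation and strand setting are not given in the sources used here. The authors deposited for each library a signal, namely reads per gene scaled by a size factor, since 100% of values were whole multiples of the smallest value to within 0.001 reads. In control 1 that value was 1.01, so close to 1 that the sign is weaker. Per the file headers, it further lists the authors' own comparison: log2 fold change and its error, a score (the test statistic), and each p-value, raw and adjusted.

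Rows with names turned into dates (27, at most 0.158% of a library's reads) were left out. Genes reaching 10 normalized counts in 3 or more libraries entered limma 3.58.1 (R 4.3.3; trend and robust variance) on log2(normalized count + 1), adjusted by Benjamini-Hochberg over all genes. Fold changes on this scale understate low genes. edgeR 4.0.16 and DESeq2 1.42.0 on recovered reads were alternatives. The script was checked on simulated counts. Lengths are the longest principal transcript in GENCODE M21.

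The genes, lists and tests were chosen with earlier results of these data known. Named are all 32 genes, called genes of the pathway list, called regulators with Ppara and Ppargc1a, Ctla4 and Pdcd1, markers, genes of the pairs, and the Cpt1b locus and peroxisomal genes, added after their values were seen. Depth was 20931730 to 39037176 recovered gene reads per library, and precision is given by the spread between libraries.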

Additional observations from a re-analysis of the deposited data

Results flagged for a closer look

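Among 40 results tested in the 4 controls (the 32 genes and 8 ratios), 1 had a library far from the rest, where chance alone flags about 1 group in 20. The log2 ratio of Pdk4 over Pdk2 was -0.33 in control 1 and 0.89, 0.84 and 0.87 in controls 2 to 4, a gap of 0.958 of the group's range.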

How the results depend on the processing

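Fold changes of the 32 genes kept their sign in 543 values over 17 alternative fits, with 1 exception, Cpt1a, at 0.0796 with scaling by library size only. That scaling moved the median of all genes from -0.02 to 0.13, the median of the 32 to -1.01, and the count of genes called lower from 609 to 310. The number of the 32 called lower was 18 with DESeq2 and 21 with limma-voom and quality weights, against 5 with edgeR (2069 genes called in all) and 7 in the principal fit. Genes called lower over all genes were 1279 with DESeq2 and 1516 with limma-voom, which called 3998 genes in all. The cause was not tested. Leaving out 1 library at a time gave 1 to 20 calls among the 32, 983 to 3333 calls over all genes, 827 to 2248 higher and 156 to 1085 lower, and a median for the 32 from -1.48 to -0.72. Over all genes the lowest counts came without ICI-myocarditis 3 and the highest without control 2. In those fits the ratio of Fabp3 over Fabp5 ran from -0.30 to 0.47, Hadha over Hadhb from -0.14 to 0.0748 and Pdk4 over Pdk2 from -0.43 to 0.13, so their signs are not settled. The ratios had too few libraries there for a permutation test to pass.

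Replicate numbers did not pair the libraries. Deviations from the group mean correlated at -0.27, -0.21 and -0.08 for numbers 1 to 3, and no library correlated best with its own number. A replicate block over the 6 libraries numbered 1 to 3 left 1 of the 32 called, 372 genes called lower and 1757 in all, against 3, 539 and 2088 without the block in these 6 libraries.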

Other observations

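Peroxisomes also oxidize fatty acids, chiefly very long and branched chains. Of 11 peroxisomal genes in the pathway list, grouped after their values were seen, 0 passed in either direction with limma. Over all genes tested 15.7% did, so 0 among 11 genes says little about them as a group. An unadjusted p under 0.05 was reached by 4 of the 11, and the median log2 fold change was -0.30. Ehhadh, the peroxisomal bifunctional enzyme, had the lowest fold change of the 11, -1.08 on the log2 scale (adjusted p = 0.0727 by limma). Acox3 had a value above 0, at 0.28 (adjusted p = 0.355 by limma).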
